A study of Saccharomyces cerevisiae with 56 samples.

Results

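The 44 segregants of a cross between 59A and S288C were sorted into a COS6-high and a COS6-low group of 22 each, by whether the signal of COS6 lay above or below a log2 intensity of 8.5. The data are log2 normalized intensities from one-colour Agilent arrays, on which transcripts at the background have a value near 5.3. 59A is a haploid derived from the wine yeast EC1118, S288C is the haploid laboratory strain, and each segregant is a haploid spore of their F1 diploid. All strains, parents included, were grown in SM425, a synthetic grape must at pH 3.3 with 425 mg/L of nitrogen. Its sugars were glucose and fructose. Samples were taken at 66 g/L of CO2, when 70% of the fermentation had been completed. The whole series held 56 arrays, of which 6 were of 59A and 6 of S288C (2 extracts with 3 technical arrays each) and 44 of segregants, with 1 array each. Arrays whose titles share a prefix were taken to be of 1 slide, which the labels do not state. Each segregant was 1 genotype measured once, and spores whose names share a number may come from 1 ascus, so they are not unrelated samples.

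COS6 belongs to the COS family of membrane proteins, which lie next to the telomeres. In S288C it stands near the right end of chromosome 7, beyond the MAL1 locus. A MAL locus holds a maltose permease, a maltase that splits maltose, and an activator that switches on the other genes when maltose is present and glucose is not. Complete MAL loci occur at the ends of several chromosomes, and strains differ in which of them they carry and in which copies work. Genes that lie close together on a chromosome are inherited together unless a crossover falls between them, so a segregant with the COS6 of one parent usually has that parent's copy of the genes around it. The genes of this arm have systematic names that begin with YGR and are numbered from the centromere to the telomere.

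COS6 itself is given only as a description, because the groups were chosen by its values. In the 22 COS6-low segregants it ranged from 5.26 to 5.59 with a median of 5.38, and the 59A arrays ranged from 5.25 to 5.55. In the 22 COS6-high segregants it ranged from 8.77 to 12.56 with a median of 11.85, against 11.94 to 12.12 in the S288C arrays. The low group thus lay at the level of 59A, which is that of the background, and most of the high group near the level of S288C. The paper warns that sequence changes can weaken binding to a probe, and that some genes are absent from 1 parent. A background signal in 59A, for COS6 or the genes below, is therefore not necessarily a lack of expression, which was not tested. Taken from a background limit of 6.3, set 1 log2 unit above the background that the authors give, the mean of the high group was at least 42.3-fold above it. Nearest to the limit between the groups were 6d at 5.59 on the low side and 22b at 8.77 on the high side. The next value above 22b was 10.98, so 22b matched neither parent. Among the 4 segregants numbered 16 there were 2 high and 2 low, and among the 4 numbered 22 there were 3 high, 22b included, and 1 low.

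**Figure D1:**
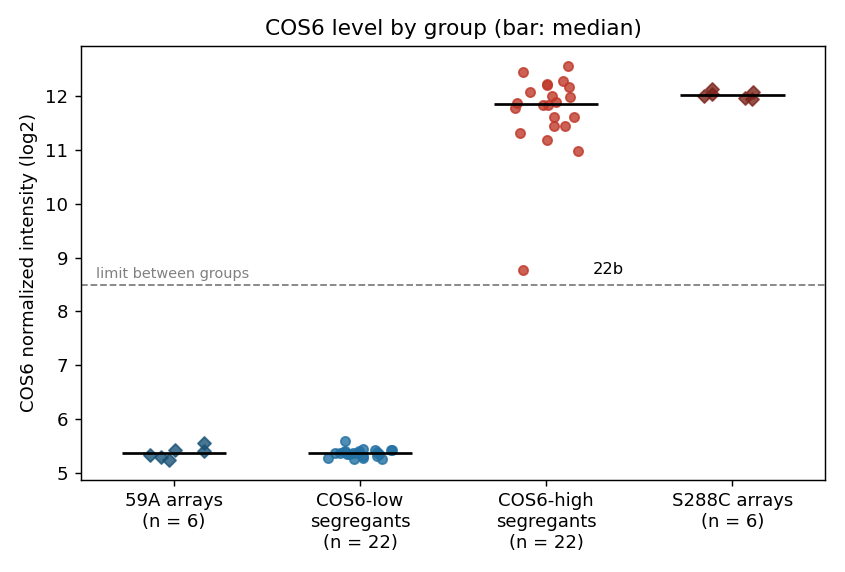
COS6 normalized intensity (log2) in each array of the parents (diamonds) and each segregant (circles), with the median of each set as a bar and the limit of 8.5 dashed. The 22 low segregants sit between 5.26 and 5.59, and 22b, at 8.77, stands alone between them and the other high segregants.

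The groups were compared on 5159 probes other than COS6 that had a value in all 44 segregants, with limma and Benjamini-Hochberg adjustment, and a probe was called at an adjusted p under 0.01. 3 probes were called, which is 0.0582% of those tested. All 3 were genes of the MAL1 locus and all were higher in the COS6-high group. They were MAL11, a permease for maltose and other alpha-glucosides, MAL13, the activator of the locus, and MAL12, its maltase. Whether the MAL13 of either parent makes a working activator was not tested. Of the 201 probes tested on the right arm of chromosome 7 these 3 were called, and of the 4958 probes elsewhere none was, while 346 of the latter had an unadjusted p under 0.05. Of the 191 tested on the left arm of the same chromosome none was called and 4 had an unadjusted p under 0.05. When probes with a missing value were kept, 2 more maltose genes, MAL31 and MAL33 of the MAL3 locus on chromosome 2, were called lower in the COS6-high group, and with these the probes called were 0.0801% of the 6244 tested.

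MAL11 (YGR289C) ranged from 5.33 to 9.04 in the COS6-high segregants, with a median of 8.40, and from 5.24 to 8.27 in the COS6-low segregants, with a median of 5.34. The ranges overlapped because of a few segregants. Without 18b the low group did not exceed 5.40, and without 18c and 22b the high group did not fall below 6.79. The difference was 2.61 ± 0.22 (SE, n = 22 and 22, adjusted p = 1.15e-11 in limma). As all low segregants but 18b were below the background limit, this understates the ratio, and the high group was at least 3.21-fold above the low one. S288C had 8.88 and 59A 5.34, so the low group lay at the level of 59A and the high group a little under S288C. The difference was positive in each of the 6 slides that held both groups, from 1.26 to 3.26.

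MAL13 (YGR288W), which encodes the activator, ranged from 5.36 to 7.24 in the high group with a median of 6.95, and from 5.23 to 6.57 in the low group with a median of 5.32. Here too the low segregants other than 18b, at 5.38 or less, were below the background limit. In the high group only 18c, at 5.36, and 22b, at 5.57, were below it. The difference was 1.43 ± 0.12 (SE, n = 22 and 22, adjusted p = 9.11e-12 in limma), or at least 1.41-fold, and it was positive in all 6 slides. MAL13 was 6.47 in S288C and 5.32 in 59A, and 18 of the 22 high segregants exceeded every array of S288C.

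MAL12 (YGR292W), the maltase, behaved otherwise with respect to the parents. It was at the background in both of them, at 5.56 in S288C and 5.46 in 59A, and this parental difference was not called (adjusted p = 0.325). In the COS6-high segregants it ranged from 5.31 to 8.04 with a median of 6.21, and 10 of the 22 lay above the background limit. In the COS6-low segregants it ranged from 5.28 to 5.61 with a median of 5.42, and none lay above that limit. 18 high segregants, and no low one, exceeded every parental array. The difference between the groups was 1.01 ± 0.18 (SE, n = 22 and 22, adjusted p = 0.00258 in limma). With the slide as a block it was 1.08 and was no longer called (adjusted p = 0.0181), although it was positive in all 6 slides, from 0.17 to 2.05. The highest values were 8.04 in 10b, 8.01 in 5a and 7.51 in 14b.

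MAL32 (YBR299W) is the maltase of the MAL3 locus and a near copy of MAL12, so the 2 probes may share signal, which was not tested. It ranged from 5.29 to 7.12 in the high group with a median of 5.94, and from 5.27 to 5.81 in the low group with a median of 5.50. The 6 high segregants in which MAL32 lay above the background limit were all among the 10 in which MAL12 did. Its difference of 0.52 ± 0.12 (SE) was not called (adjusted p = 0.0852), though it was when 19c and 20a were left out and probes with missing values were kept. Both parents were at the background, at 5.41 in S288C and 5.53 in 59A.

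MAL33 (YBR297W), the activator of the MAL3 locus, differed in the opposite direction. It lacked a value in 13b, which the fit left out for this probe. It ranged from 5.29 to 9.06 in 21 high segregants with a median of 6.81, and from 7.24 to 11.12 in 22 low segregants with a median of 9.01. The difference was -2.31 ± 0.30 (SE, adjusted p = 3.17e-06 over the 6244 probes), and it was negative in all 6 slides. 59A had 8.67 and S288C 7.30, a difference in the same direction that was called between the parents (adjusted p = 7.66e-05). In 8 of the 21 high segregants MAL33 was below the background limit, from 5.29 to 5.43, whereas both parents and all 22 low segregants were above it. 14 high segregants and 1 low segregant, 18b, lay below every parental array, and 16 low segregants and 1 high segregant, 18c, above every one.

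MAL31 (YBR298C), the maltose permease of that locus, lacked a value in 7c and was fitted without it. It ranged from 8.69 to 10.92 in 21 high segregants with a median of 10.01, and from 9.81 to 11.59 in 22 low segregants with a median of 10.99. The groups overlapped, and no segregant was at the background. The difference was -0.97 ± 0.15 (SE, adjusted p = 0.000143 over the 6244 probes). With the slide as a block it was -0.91 and was not called (adjusted p = 0.0179), and it was negative in 5 of the 6 slides. MAL31 was 10.82 in 59A and 10.24 in S288C. As the permeases and the activators of different MAL loci are related in sequence, and sharing of signal between them was not tested, the values of MAL31 and MAL33 give the signal of these probes and not necessarily of 1 gene.

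**Figure D2:**
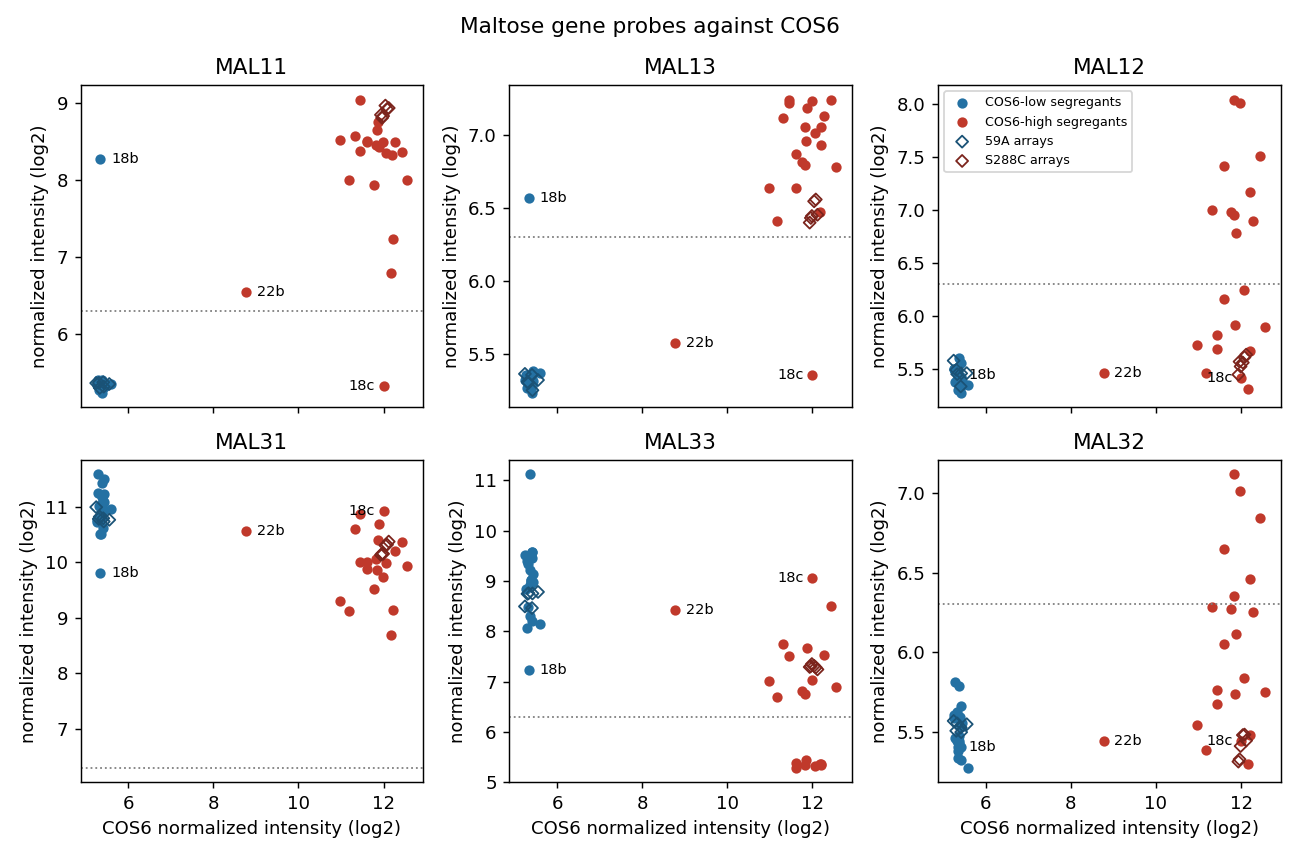
Normalized intensity (log2) of 6 maltose gene probes against that of COS6, in COS6-low (blue) and COS6-high (red) segregants and in the arrays of both parents (open diamonds), with the background limit of 6.3 dotted. 18b and 18c change places in the panels of MAL11, MAL13, MAL31 and MAL33, 22b lies between the groups in COS6 and MAL11, and 8 high segregants lie below the limit in MAL33.

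3 segregants set COS6 apart from the MAL genes. 18b had COS6 at 5.35, the level of 59A, but MAL11 at 8.27 and MAL13 at 6.57, as in S288C. 18c had the opposite combination, with COS6 as high as in S288C, MAL11 at 5.33 and MAL13 at 5.36. In both of them MAL31 and MAL33 went with MAL11 and not with COS6. MAL31 was 9.81 and MAL33 7.24 in 18b, the lowest values of the low group, and MAL31 was 10.92 and MAL33 9.06 in 18c, the highest of the high group. 22b had intermediate values of COS6, at 8.77, and of MAL11, at 6.54. Its MAL13, at 5.57, was below the background limit. Its MAL31, at 10.56, and its MAL33, at 8.43, lay where the ranges of the high and low groups overlapped. In 19c, MAL11 was also lower than in most of the group, at 6.79, with COS6 at 12.17 and MAL13 at 6.47. Without 18b, 18c and 22b, a choice made after their values were seen, the same 3 arm probes were called, and the ranges of MAL11, MAL13 and MAL33 were separate but for MAL33 in 14b. MAL33 then ranged from 8.07 to 11.12 in the low group and from 5.29 to 8.496 in the high group.

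The other maltose genes measured did not pass the test. These were MPH2 and MPH3, which encode alpha-glucoside permeases, and IMA4, an isomaltase. The MPH2 and MPH3 probes moved together over the segregants, with 7.46 and 7.12 in 19b and 5.29 and 5.37 in 4c. Sharing of signal between them was not tested, so they may not be separate measurements. MPH2 ranged from 5.25 to 7.20 in the high group and from 5.26 to 7.46 in the low group, and its difference was -0.30 ± 0.17 (SE, adjusted p = 0.779). MPH3 ranged from 5.22 to 6.98 and from 5.22 to 7.12, with a difference of -0.33 ± 0.15 (SE, adjusted p = 0.653). IMA4 ranged from 8.64 to 11.63 and from 8.81 to 10.98, with a difference of -0.04 ± 0.20 (SE, adjusted p = 0.994). Of the 13 maltose genes listed 9 had a probe and 7 were in the fit, of which 3 were called higher and none lower, with a median difference of 0.52 against 0.01 over all probes tested. Over all 9, with MAL31 and MAL33 among them, 3 were called higher and 2 lower, and the median was -0.04.

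Of the 13 genes measured from YGR279 to YGR296, 10 were in the fit, and outside the MAL genes none was called. SCW4 (YGR279C), which encodes a cell wall glucanase-like protein, came closest. It ranged from 11.14 to 14.93 in the high group with a median of 13.66, and from 12.18 to 15.38 in the low group with a median of 14.52. Its lowest value in the low group was that of 18b, and the other 21 low segregants were at 13.62 or more. The difference of -1.06 ± 0.25 (SE) was not called (adjusted p = 0.0871), and it was called when 18b was left out (-1.17, adjusted p = 0.00817). SCW4 was 14.52 in 59A and 11.37 in S288C, and its difference was negative in all 6 slides.

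PAU12 (YGR294W), a seripauperin gene between MAL12 and COS6, ranged from 11.57 to 13.96 in the high group and from 11.84 to 13.99 in the low group. Its difference was -0.52 ± 0.19 (SE, adjusted p = 0.576), and it was 14.12 in 59A and 12.29 in S288C. YRF1-3 (YGR296W), a helicase gene of the telomeric repeats and the next gene after COS6, ranged from 10.64 to 12.69 and from 10.24 to 12.10, with a difference of 0.26 ± 0.13 (SE, adjusted p = 0.712). Both belong to families of near copies whose probes may share signal. The multidrug exporter YOR1, with 11.59 in S288C and 10.03 in 59A, differed by 0.10 ± 0.13 (SE, adjusted p = 0.939) between the groups. BGL2, a glucanase of the cell wall, PXR1, which acts in ribosome formation, and ZUO1, a chaperone of the ribosome, had differences of 0.02 ± 0.20, -0.11 ± 0.12 and -0.01 ± 0.15 (SE), with adjusted p of 0.999, 0.904 and 0.999. ERV29, a cargo receptor of the secretory pathway, and BIO2, the last enzyme of biotin synthesis, had missing values and differed by 0.07 ± 0.13 and 0.12 ± 0.17 (SE), with adjusted p of 0.957 and 0.947.

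Between the parents 8 of 11 probes of this stretch other than COS6 were called, 5 higher and 3 lower in S288C, where a call needed an adjusted p under 0.01 and a difference of more than 0.7 on the log2 scale. Over all probes 1503 of 5969, or 25.2%, passed the same limits, with 2 extracts against 2. Of the 3 probes called between the groups of segregants, MAL11 and MAL13 were also called between the parents, both in the same direction, and MAL12 was not. YOR1, BGL2, ERV29, SCW4, PAU12 and YRF1-3 were called between the parents and not between the groups.

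The share of probes with an unadjusted p under 0.05 was 7.31% over all probes tested and 6.98% off the right arm. On the arm it was 6.56% of 61 probes from YGR001 to YGR099, 15.3% of 72 from YGR100 to YGR199, 13.2% of 38 from YGR200 to YGR249, 30% of 20 from YGR250 to YGR278 and 50% of 10 from YGR279 to YGR296. Neighbouring genes share their inheritance, so these probes are not independent of each other. In the stretch from YGR250 to YGR278 the 6 probes were all higher in the high group and all differed in the same direction as the parents. Off the right arm, 219 of the 346 probes with an unadjusted p under 0.05 were higher too. Of the 342 of these with parental values, 297 shared the direction of the parents. The 6 probes of the stretch were led by CWC22 (YGR278W), a splicing factor, at 0.26 ± 0.06 (SE, adjusted p = 0.088), and RNH70 (YGR276C), a ribonuclease, at 0.26 ± 0.08 (SE, adjusted p = 0.481). CWC22 ranged from 7.11 to 7.87 in the high group and from 6.88 to 7.48 in the low group. It was 7.46 in S288C and 7.00 in 59A.

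**Figure D3:**
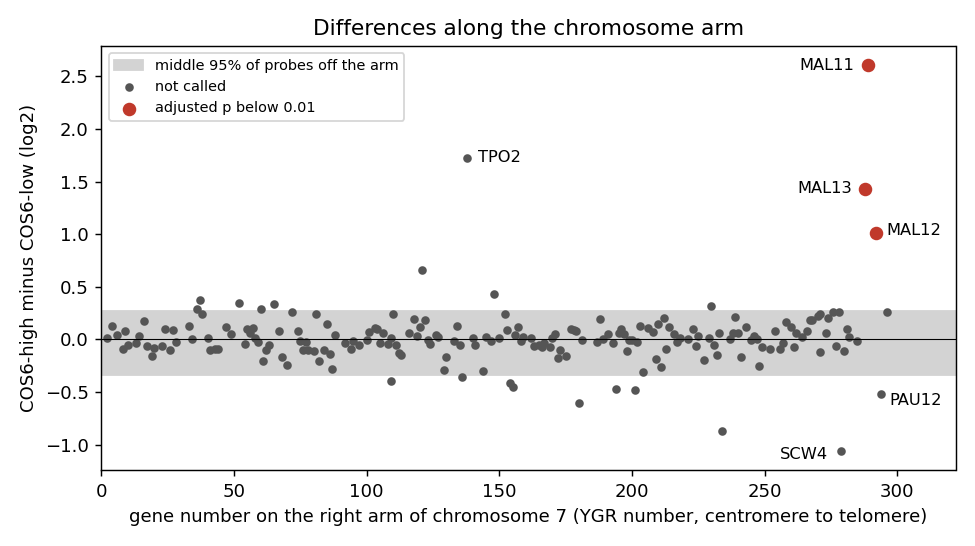
Difference between the COS6-high and COS6-low means (log2) for the 201 probes tested on the right arm of chromosome 7, by the number in the systematic name, with the middle 95% of the probes off the arm (-0.34 to 0.27) in grey. The called genes MAL11, MAL13 and MAL12 lie at the telomeric end, and TPO2 and SCW4 differ widely without being called.

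Genes of the arm whose parental difference exceeded 2 on the log2 scale were used to follow the inheritance of COS6 along the arm. Each segregant was put on the side of S288C or of 59A by the midpoint of the parental means. For MAL11, 4 of the 44 segregants lay on the other side than for COS6, and these were 18b, 18c, 19c and 22b. For SCW4 the number was 15, of which 14 were COS6-high segregants on the 59A side of the midpoint. For YHB1 (YGR234W), a flavohemoglobin that detoxifies nitric oxide, it was 10, and for TPO2 (YGR138C), a polyamine exporter, 13. For YGR109W-A it was 23 and for the methionine permease MUP1 (YGR055W) 19, where 22 would be an even split. YRF1-3, next to COS6 but of a family whose probes may share signal, gave 19. The order thus did not follow the distance for all of them, and SCW4 and YRF1-3 departed from COS6 in more segregants than YHB1 did. A level can also depend on other loci, so these are counts of levels and not of crossovers.

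**Figure D4:**
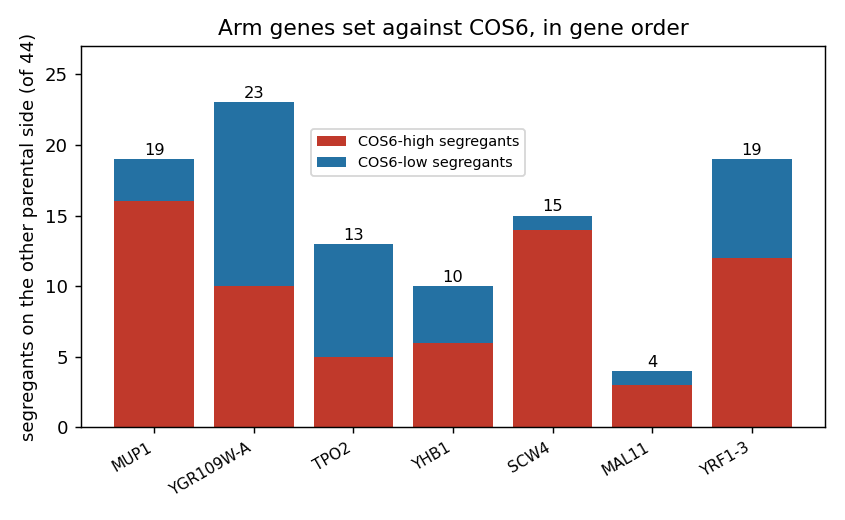
Number of the 44 segregants whose level lay on the other parental side than their COS6 level, for 7 genes of the arm in order from the centromere (left) to the telomere (right), split into COS6-high and COS6-low segregants. MAL11 has the lowest count, 4, and YGR109W-A the highest, 23.

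TPO2 had one of the largest differences on the arm without being called. It ranged from 8.93 to 14.42 in the high group with a median of 13.55, and from 8.99 to 14.38 in the low group with a median of 10.08. Both groups therefore spanned the levels of both parents, 14.17 in S288C and 9.06 in 59A, and the difference of 1.72 ± 0.56 (SE) had an adjusted p of 0.493.

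Off the arm the other genes named COS did not follow COS6. Of the other 11 measured 7 were in the fit, and none was called, with a median difference of 0.05. These counts include COS111 (YBR203W), which shares the name but is not of the family next to the telomeres. COS4 differed by 0.53 ± 0.20 (SE, adjusted p = 0.576) and COS7 by -0.70 ± 0.33 (SE, adjusted p = 0.653). The COS7 probe read 7.72 in S288C and 5.35, at the background, in 59A. It spanned 5.21 to 7.80 in the high group and 5.24 to 8.12 in the low group. COS1, COS2, COS3, COS10 and COS111 had differences from -0.08 to 0.24. COS5, COS8, COS9 and COS12, which had missing values, differed by 0.10, -0.05, -0.16 and -0.01, and none was called. The 7 YRF1 genes in the fit had differences from 0.22 to 0.31 with none called, and YRF1-2 had the smallest adjusted p, 0.647.

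The seripauperin (PAU) genes, a family of cell wall mannoproteins of anaerobic cells, had a lower mean in the COS6-high group in all 20 members in the fit, with differences from -0.87 to -0.51 and a median of -0.71. None was called, while 18 had an unadjusted p under 0.05. Over all probes tested 7.31% had such a p and 2358 of 5159 were lower in the high group. The lowest adjusted p was 0.449, for PAU24, which ranged from 11.78 to 15.08 in the high group and from 13.44 to 15.09 in the low group. The mean level over the family ranged from 11.26 to 14.72 in the high group and from 12.72 to 14.66 in the low group. The members are near copies of each other, so their probes do not give 20 separate measurements. In the parents the median difference of the family was -2.17, lower in S288C.

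Genes of biotin uptake and synthesis were included because BIO2 lies beside the MAL1 locus. Of the 3 in the fit none was called. BIO5, a transporter of a biotin precursor, differed by 0.60 ± 0.29 (SE, adjusted p = 0.671), the biotin permease VHT1 by 0.33 ± 0.20 (SE, adjusted p = 0.789) and BIO3 by 0.19 ± 0.21 (SE, adjusted p = 0.907). BIO4, with missing values, differed by -0.14 ± 0.15 (SE, adjusted p = 0.918). Of 15 genes of cell wall glucans, 12 were lower and 3 higher in the high group, with a median of -0.16, and none was called. Beside SCW4 the smallest adjusted p were those of EXG2 (-0.29, adjusted p = 0.642), FKS1 (-0.34, adjusted p = 0.647) and SIM1 (-0.36, adjusted p = 0.789). Of 21 hexose transporter genes none was called, with HXT4 at -0.90 ± 0.38 (SE, adjusted p = 0.643). Of 17 multidrug exporter genes none was called.

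The groups were checked for balance in other respects. Of the 4 genes in the fit that mark mating type a none was called, but all 4 were higher in the high group, with differences from 0.19 to 0.50. Of the 5 listed for type alpha none was called, and 4 were lower, with differences from -0.71 to 0.02. Among these, MATALPHA2 did not separate the types, as it was 10.86 in 59A, of type a, and at least 10.48 in every segregant. Other mating type genes varied widely within a group, with HMRA1 from 5.28 to 11.23 in the high group (SE of its difference 0.80). The test could thus miss an uneven split, and mating types were not counted by group. The 133 genes tested on the distal left arm of chromosome 16 had a median difference of -0.01, and none was called. This arm was checked for the added copy that the paper reports. The mean level of these genes ranged from 8.59 to 9.50 in the high group and from 8.61 to 9.53 in the low group. Carriers of the added copy were not counted by group. The 3 sodium pump genes had differences from -0.18 to -0.10. The 7 slides, as inferred from the array titles, did not hold the groups evenly. Slide 5 held 6 high and no low segregants, slide 3 held 5 and 1, and the others held 2 or 3 high and 4 or 5 low ones. Without slide 5 the same 3 arm probes were called.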

How the data were processed

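The authors deposited log2 spot median intensities of one-colour (Cy3) Agilent arrays, read with GenePix and quantile normalized with limma under R 2.13.1. They give 5.3 as background. Quantile normalization hides any shift of all transcripts. 5197 of 6245 probes carried 1 gene name and 1048 none, and no gene had several probes. The build of the probe positions is not given in the sources used here, so no positions are printed, and gene names and their order came from the R64 annotation. The members and lists were chosen with earlier results of these data known.

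The 2 groups of segregants were tested in R 4.3.3 with limma 3.58.1 on probes with all 44 values, high minus low, with Benjamini-Hochberg adjustment and an adjusted p under 0.01. Parents were compared on the means of their technical arrays. The fit recovered 16%, 66%, 92% and 100% of 50 simulated probes that differed by 0.25, 0.5, 1 and 2 on the log2 scale among 5159. The simulation changed 200 probes at once and used independent normal noise. In the data only 3 probes were called, so the adjustment was stricter there. These shares therefore overstate what the fit could find in the data. Genes named were all measured from YGR279 to YGR296, the called ones, all maltose, biotin and COS genes and up to 4 of each other list with the smallest adjusted p. CWC22, RNH70, EDC2 and the marker genes of the arm were picked once their values had been seen. Alternatives were the slide, the name number and the extract number as blocks, filters on dim probes and on missing values, a shift of each array, a rank-sum test, another prior, covariates, and samples left out. Python 3.11.15, numpy 2.4.6, pandas 2.3.3 and matplotlib 3.10.9 were used for the counts and plots.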

Additional observations from a re-analysis of the deposited data

How the results depend on the processing

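The number of arm probes called was 3 except with the slide as a block, where it was 2, with bright probes only, where it was 1 because MAL12 and MAL13 were removed by the filter, and without 18b, where it was 4. Over the 44 fits that left out 1 segregant it ranged from 3 to 4. Elsewhere none was called, over these fits too (0 to 0), except that with missing values kept 2 were, or 1 with the slide as a block as well (MAL33) and 3 without 19c and 20a as well (MAL31, MAL32 and MAL33), combinations chosen after seeing the data. 3 in place of 7 genes served as markers when the parental difference had to exceed 3. With the slide as a block MAL12 (1.08, adjusted p = 0.0181) and MAL31 (-0.91, adjusted p = 0.0179) lost their call, while MAL11, MAL13 and MAL33 kept theirs there and under the other settings that held them. MAL11 passed the filter on dim probes only through the high group, so its call there adds nothing.

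Some differences near 0 changed sign, none of them called. IMA4 was 0.21 with the slide as a block, 0.029 without 19c and 20a and 0.088 without slide 5, and from -0.12 to 0.025 over fits without 1 segregant. BGL2 was -0.0032 without segregants near the limit, -0.0076 with the chromosome 16 arm as covariate and -0.041 without 18b, 18c and 22b, and from -0.060 to 0.11 over fits without 1 segregant. ZUO1 was 0.041, 0.00076 and 0.060 under these and from -0.10 to 0.041 without 1 segregant, and ERV29 was -0.051 with the slide as a block.

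In the parents 1503 probes were called, and 1528 with the extract number as a replicate block. With 2 pairs, whose deviations correlated at 0.44, the numbers are not known to pair extracts. Leaving out 1 extract gave 1398 to 1610. The number of arrays limits precision. Values below 6.3 understate differences.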

Other observations

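Outside the genes above, the smallest adjusted p off the arm after MAL32 was that of EDC2, an activator of mRNA decapping, with a difference of 0.38 ± 0.09 (SE, adjusted p = 0.150). It ranged from 10.99 to 12.08 in the COS6-high group and from 10.49 to 11.82 in the COS6-low group, and was 11.79 in S288C and 11.11 in 59A. The ASP3 genes of asparaginase II, on another chromosome, differed more than any called gene without being called, with 2.82 ± 1.38 (SE, adjusted p = 0.681) for ASP3-2. 13 of the 22 high and 7 of the 22 low segregants lay above the parental midpoint of this gene.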
